A study of Homo sapiens with 4 samples.

Results

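The 9 genes described here encode enzymes that make serine and move its one-carbon units through the folate cycle: PHGDH, PSAT1, PSPH, SHMT1, SHMT2, MTHFD1, MTHFD1L, MTHFD2 and ALDH1L1. They were chosen by name for their function, with earlier results of these data known. All 9 were found by Ensembl identifier among the 62893 genes of the count tables. RNA sequencing was done on total RNA of Hep-G2, a hepatoma-derived human line, at passage 21. The knockdown cells carried the shRNA TRCN0000246247 against FTO, the demethylase that acts on N6-methyladenosine in RNA, and the control cells carried SHC002, which the series describes as a scramble. Each group rests on 1 shRNA, and the labels do not say whether a culture was a clone or a pool. Each group has 2 count tables, called run 1 and run 2. Total counts ran from 20220271 to 20706611 reads per shFTO run and from 20047409 to 20474554 per scramble run.

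Serine is made from the glycolytic intermediate 3-phosphoglycerate in a chain of enzymes that starts with PHGDH. The serine hydroxymethyltransferases then split serine into glycine and a one-carbon unit that is carried on tetrahydrofolate. Mitochondria turn that unit into formate, which the cytosol uses to make purines, thymidylate and methyl groups, and ALDH1L1 disposes of the surplus by oxidising it to carbon dioxide. In liver, where folate is stored and many of these enzymes are abundant, the pathway also feeds the methionine cycle. The transcription factors ATF4 and MYC are known activators of several of these genes.

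Counts of run 1 and run 2 of the same group agreed within sampling noise. A chi-square test of their counts gave 1.013 per degree of freedom for the shFTO runs over 13674 genes (p = 0.142) and 1.019 for the scramble runs over 13359 genes (p = 0.0648), against 118.5 to 120.4 for runs of different groups. The runs were therefore pooled, each group was counted as 1 sample, and differences between the groups have no replicate check and no p-value. Each ratio has a 95% interval from the exact Clopper-Pearson limits on how its reads divide between the groups, for counting error only. The share of all tested genes whose runs do not overlap between the groups was not counted. Non-overlap given below therefore does not set a gene apart from other genes. Levels are in CPM, the read count per 1000000 reads of the library size after edgeR's TMM scaling, which centres the bulk of genes. FTO had 116 and 128 reads in the shFTO runs, against 594 and 550 in the scramble runs. Of the 8 hepatocyte markers examined, all had reads, and 6 were at least 1.5-fold lower in shFTO cells, where 13.4% of all tested genes were. None of the 8 was higher, and they ran from 1.32-fold lower (HNF4A) to 71.3-fold lower (AFP). AFP was at 28.8 CPM in shFTO cells and 2053 CPM in scramble cells. The summed level of the 8 markers was 15420 and 15340 CPM in the shFTO runs and 35430 and 35400 CPM in the scramble runs. Of 14 markers of fibroblasts, endothelium and blood, 8 had no read in any run and 1, PDGFRB, passed the filter on low counts, at 3.62 CPM in shFTO cells and 23.3 CPM in scramble cells. The part of this shift in the results below was not tested.

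The starts of 3 of the genes are shown because they carry a motif or belong to the gene that differed most. Each is 250 bases long and ends just before a transcription start in RefSeq (GRCh38.p14, a later build than the hg19 of the counts), and runs 5′ to 3′ on the strand of the gene. Capitals mark the E-box CACGTG, which MYC and related factors can bind, and TGATGNAA, the core of the amino acid response element that ATF4 can bind.
MTHFD1: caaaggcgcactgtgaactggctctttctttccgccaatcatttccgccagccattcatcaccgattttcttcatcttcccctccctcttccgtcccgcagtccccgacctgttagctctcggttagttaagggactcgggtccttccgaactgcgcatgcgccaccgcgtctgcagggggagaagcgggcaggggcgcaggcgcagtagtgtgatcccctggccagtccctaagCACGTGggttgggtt
MTHFD1L: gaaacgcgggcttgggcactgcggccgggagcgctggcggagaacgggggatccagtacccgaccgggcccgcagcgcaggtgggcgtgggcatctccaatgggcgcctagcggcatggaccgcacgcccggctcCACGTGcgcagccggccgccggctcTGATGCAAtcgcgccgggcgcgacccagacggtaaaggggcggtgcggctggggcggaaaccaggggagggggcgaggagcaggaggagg
ALDH1L1: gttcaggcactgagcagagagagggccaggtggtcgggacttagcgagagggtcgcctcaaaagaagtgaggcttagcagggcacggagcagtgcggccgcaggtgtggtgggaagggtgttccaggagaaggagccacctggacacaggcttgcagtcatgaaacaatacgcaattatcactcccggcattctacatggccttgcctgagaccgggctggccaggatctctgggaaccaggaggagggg
The MTHFD1 window is chr14:64388103-64388352 (plus strand), the MTHFD1L window chr6:150866197-150866446 (plus strand) and the ALDH1L1 window chr3:126181187-126181436 (minus strand). Another ALDH1L1 window, chr3:126180587-126180836, is not shown, and neither ALDH1L1 window held a motif. Other MTHFD1L windows are not shown either. Which start these cells use was not tested. Promoter entries were matched for 7 of the 9 genes, with 11 windows because some genes have several starts. Both strands were searched. CACGTG was found in 3 of the 11 windows and in 6.34% of 35116 RefSeq promoter windows of this length, and TGATGNAA in 2 of the 11 and in 3.14%. Both motifs of MTHFD1L lie in 2 overlapping windows, so the same letters are counted in each. These matches are descriptions of letters, not sites.

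The ratios of the 9 genes lay within the spread of all tested genes, and the counts below do not set them apart from those genes. Of the 9, 1 was at least 1.5-fold higher in shFTO cells, where 11.4% of the 13767 genes past the filter on low counts were, and none was at least 1.5-fold lower, where 13.4% of all tested genes were. None of the 9 was past 2-fold, where 5.18% of all tested genes were higher and 6.19% lower. All 9 passed that filter. edgeR's quasi-likelihood test, run on the 4 runs as if they were replicates and so a comparison of these libraries only, called 2 of the 9 higher and 4 lower, where it called 33.2% of all tested genes higher and 33.4% lower. These calls depend on the scaling. Upper quartile scaling called 5 of the 9 higher and 4 lower, beside 5199 higher and 4142 lower of all 13767 tested genes. With plain library size 5 of the 9 were called higher and 2 lower, beside 6711 higher and 3041 lower of all tested genes. The median log2 ratio of the 9 genes (shFTO over scramble) was 0.01, beside a median of 0.01 over all tested genes. For 7 of the 9 the ratio lay between the 25th and the 75th percentile of all tested genes, at log2 ratios of -0.30 and 0.29, and the other 2, MTHFD1 and ALDH1L1, lay above it. The summed level of the set was 1254 and 1263 CPM in the shFTO runs and 1294 and 1271 CPM in the scramble runs. With plain library size in place of TMM, the median over all tested genes was 0.18 and that of the 9 genes was also 0.18, so log2 ratios given here are read against the centre of all genes; no gene of the 9 changed sign under any of the 4 scalings tried.

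**Figure D1:**
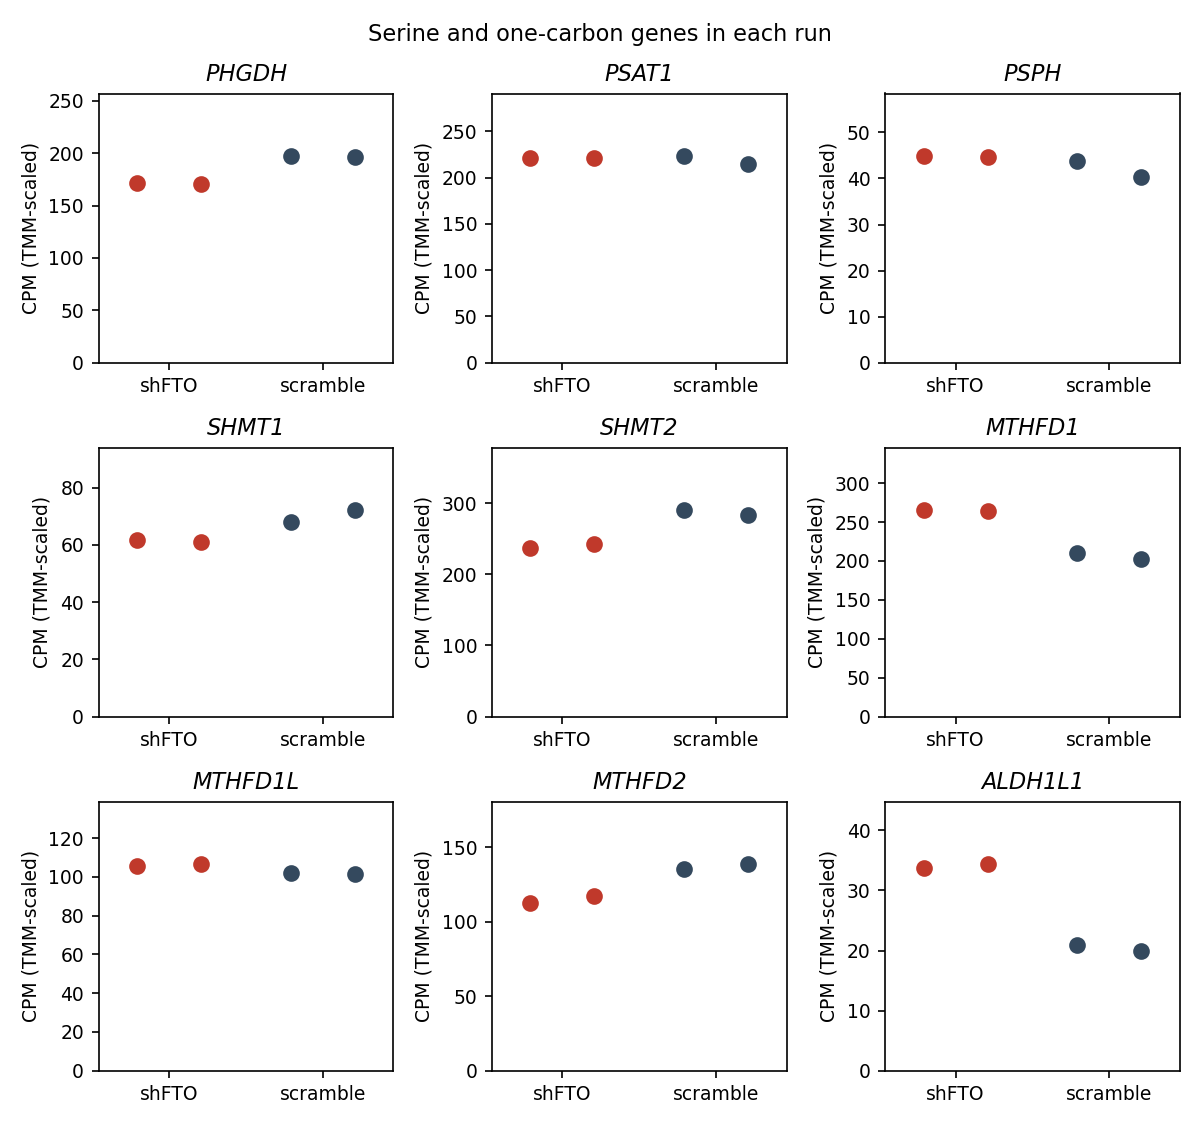
TMM-scaled CPM of the 9 genes (vertical axes, each from 0) in the 2 shFTO runs (red, left) and the 2 scramble runs (dark, right), with 1 point per run. The ALDH1L1 points sit at 33.8 and 34.5 CPM in shFTO and at 20.9 and 19.99 CPM in scramble, and the groups overlap for PSAT1.

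None of the 3 steps of serine synthesis was past 1.5-fold. PHGDH (ENSG00000092621), the dehydrogenase that commits 3-phosphoglycerate to serine, had 171.3 and 170.8 CPM in the shFTO runs and 197.7 and 196.3 CPM in the scramble runs. Both shFTO runs were below both scramble runs, and pooled PHGDH was 1.15-fold lower (95% counting interval 1.12 to 1.19), a log2 ratio of -0.20 that was -0.04 and not called by edgeR with plain library size. PSAT1 (ENSG00000135069), the aminotransferase of the next step, had 221.8 and 221.2 CPM in shFTO runs and 223.9 and 215.3 CPM in scramble runs. The PSAT1 runs of the groups overlapped with TMM scaling, and its ratio of 1.01 had an interval of 0.98 to 1.04. PSPH (ENSG00000146733), the phosphatase that releases free serine, had 45.0 and 44.7 CPM in shFTO runs and 43.7 and 40.4 CPM in scramble runs. The PSPH ratio was 1.07, and its interval of 0.998 to 1.14 held 1. The named pseudogenes of PSAT1 and PSPH had at most 1 read in any run, so few reads were assigned to these copies, though reads shared with near-identical copies can be lost.

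The transcripts of both serine hydroxymethyltransferases were lower in shFTO cells with TMM scaling; with plain library size the log2 ratios were -0.10 for SHMT2 and -0.02 for SHMT1, and edgeR no longer called SHMT1. SHMT2 (ENSG00000182199), the mitochondrial enzyme, had 236.4 and 242.1 CPM in shFTO runs and 290.8 and 283.6 CPM in scramble runs, a pooled level 1.2-fold lower (1.17 to 1.23). SHMT1 (ENSG00000176974), its cytosolic counterpart, had 61.9 and 61.1 CPM in shFTO runs and 68.2 and 72.4 CPM in scramble runs, and was 1.14-fold lower (1.08 to 1.21). With TMM scaling the groups did not overlap for either gene, but with plain library size the SHMT1 runs overlapped. SHMT2 held 79.2% and 79.8% of the reads of the pair in the shFTO runs and 81.0% and 79.7% in the scramble runs, a within-library share that no scaling of libraries moves. The shares of the groups overlapped. An exon of SHMT1 overlaps SMCR8 on the other strand, which had 511 and 490 reads in shFTO runs and 318 and 325 in scramble runs. The strand setting of the counting is not given in the sources used here, so reads of the overlap cannot be told apart.

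Among the enzymes that interconvert folate-bound one-carbon units, the cytosolic MTHFD1 was higher in shFTO cells and the mitochondrial MTHFD2 lower. The sizes depend on the scaling. Log2 ratios were 0.36 for MTHFD1, 0.06 for MTHFD1L and -0.26 for MTHFD2 with TMM. With plain library size they were 0.53, 0.23 and -0.09. MTHFD1 (ENSG00000100714), the cytosolic enzyme with 3 activities that uses formate to make the folate forms for purines and thymidylate, had 266.0 and 264.7 CPM in shFTO runs and 210.6 and 202.0 CPM in scramble runs. It was higher in both shFTO runs than in both scramble runs, by 1.29-fold pooled (1.25 to 1.32). MTHFD2 (ENSG00000065911), the mitochondrial dehydrogenase and cyclohydrolase, had 112.4 and 117.3 CPM in shFTO runs and 135.7 and 139.0 CPM in scramble runs and was 1.2-fold lower (1.15 to 1.24). MTHFD1L (ENSG00000120254), the mitochondrial synthetase that releases formate, had 105.7 and 106.8 CPM in shFTO runs and 102.2 and 101.6 CPM in scramble runs, a ratio of 1.04 whose interval of 0.999 to 1.09 held 1. MTHFD1L and MTHFD2 together held 45.1% and 45.8% of the reads of these 3 genes in the shFTO runs and 53.0% and 54.4% in the scramble runs. The shares of the groups did not overlap; pooled, they were 45.5% (44.8 to 46.1) in shFTO cells and 53.7% (53.0 to 54.5) in scramble cells, with exact binomial intervals. Divided by transcript length, the shares were 39.5% in shFTO cells and 47.3% in scramble cells. None of the named pseudogenes of MTHFD1 or MTHFD2 had more than 2 reads in a run.

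**Figure D2:**
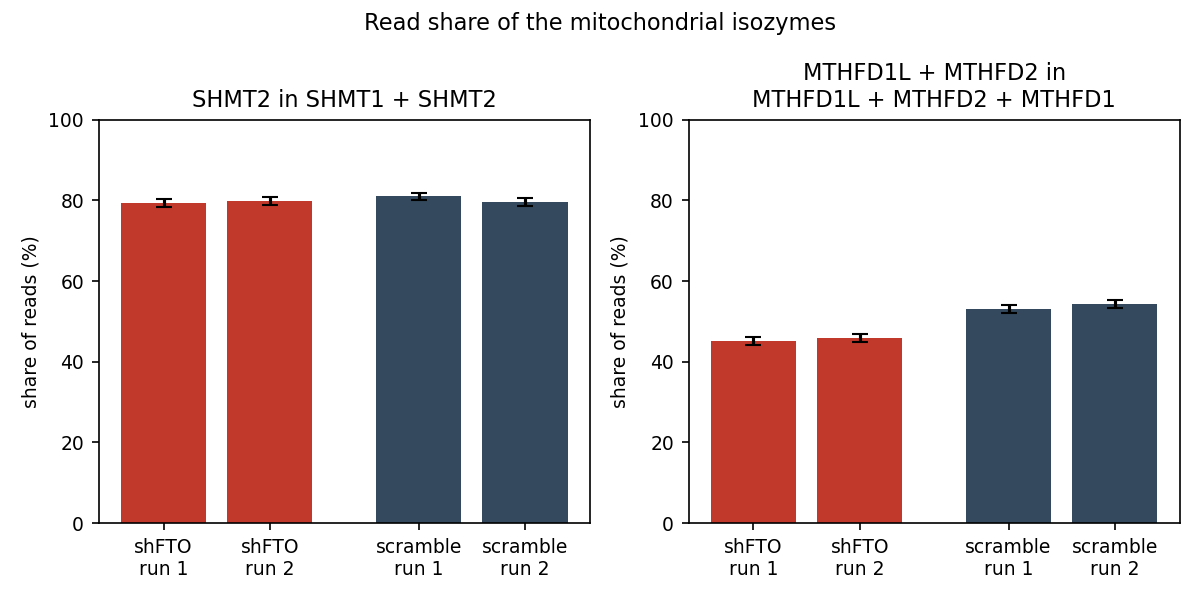
Share of reads (percent, vertical axis from 0 to 100) that came from SHMT2 within the SHMT pair (left) and from MTHFD1L and MTHFD2 within the 3 MTHFD genes (right), with a bar per run and exact 95% binomial intervals of counting error. The SHMT2 share lies near 80% in all 4 runs, whereas the mitochondrial MTHFD share is 45.1% and 45.8% in shFTO and 53.0% and 54.4% in scramble.

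ALDH1L1 was the 1 gene of the set past 1.5-fold. ALDH1L1 (ENSG00000144908), the cytosolic 10-formyltetrahydrofolate dehydrogenase, had 723 and 756 reads in the shFTO runs and 395 and 386 in the scramble runs, or 33.8 and 34.5 CPM against 20.9 and 19.99 CPM. The groups did not overlap, and the pooled level was 1.67-fold higher in shFTO cells (1.53 to 1.82), a log2 ratio of 0.74 at the 91.9th percentile of all tested genes. MTHFD1 stood at the 79.9th percentile, and the genes furthest below the centre, SHMT2 and MTHFD2, at the 27.5th and 27.8th. The antisense gene ALDH1L1-AS2, whose exons overlap ALDH1L1, had 6 and 5 reads in shFTO runs and 7 and 5 in scramble runs.

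**Figure D3:**
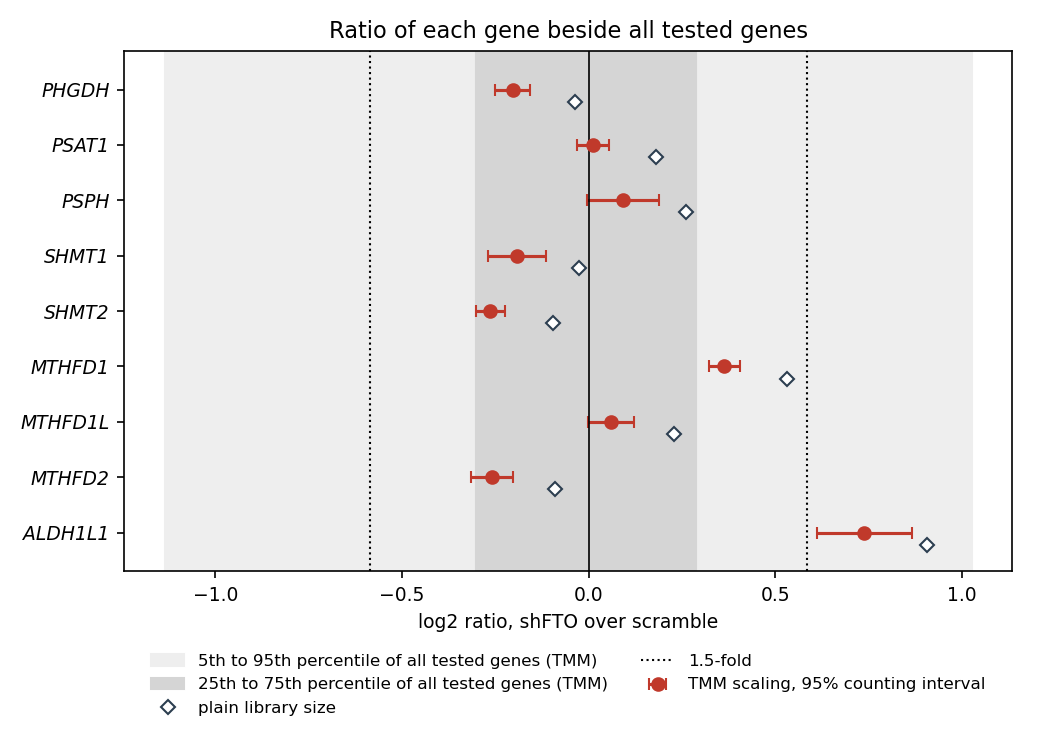
Log2 ratio of shFTO over scramble (horizontal axis) for each of the 9 genes, with TMM scaling and its 95% counting interval (red) and with plain library size (open diamonds), beside the spread of all tested genes (grey). ALDH1L1, at 0.74, is the gene beyond the dotted 1.5-fold line, and MTHFD1, at 0.36, is the other gene outside the middle grey band.

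Levels per kilobase of transcript put SHMT2, PSAT1, PHGDH and MTHFD1 above the other genes in both groups, with PSPH and ALDH1L1 last. In shFTO cells PSAT1 was at 101.2 CPM per kilobase, SHMT2 at 94.3, MTHFD1 at 84.6, PHGDH at 66.2, MTHFD1L at 29.5, MTHFD2 at 25.8, SHMT1 at 24.96, PSPH at 20.6 and ALDH1L1 at 10.4. In scramble cells SHMT2 led at 113.2 CPM per kilobase, before PSAT1 at 100.4, PHGDH at 76.2, MTHFD1 at 65.8, MTHFD2 at 30.8, SHMT1 at 28.5, MTHFD1L at 28.3, PSPH at 19.3 and ALDH1L1 at 6.24. PSAT1 thus stood above SHMT2 in both shFTO runs and below it in both scramble runs, and MTHFD1 likewise stood above PHGDH in both shFTO runs and below it in both scramble runs. MTHFD1L was above MTHFD2 in both shFTO runs, at 29.3 and 29.6 against 25.2 and 26.3 CPM per kilobase, and below it in both scramble runs, at 28.4 and 28.2 against 30.4 and 31.2. SHMT1 and MTHFD1L overlapped in the scramble runs, at 27.7 and 29.4 CPM per kilobase for SHMT1 and 28.4 and 28.2 for MTHFD1L, so their order there is within the spread of the runs. In shFTO cells MTHFD2 and SHMT1 differed by less than the 2 runs of MTHFD2. In scramble cells SHMT2, PSAT1, PHGDH and MTHFD1 lay at the 95th, 94.3rd, 92.4th and 91.2nd percentile of all tested genes in level per kilobase, while ALDH1L1 lay at the 48.2nd. Lengths are of 1 principal transcript per gene in GENCODE v29, so levels between genes depend on that choice.

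The log2 ratios of 8 known regulators of the pathway ran from -0.52 to 0.99 at the transcript level, with a median of 0.12. ATF4, whose activity is set mainly by translation, had a ratio of 1.01 (0.983 to 1.03), and its relative ATF5 1.03 (0.967 to 1.1). DDIT3, a stress factor induced by ATF4, had a ratio of 1.14 (0.988 to 1.33) and MYC 0.928 (0.898 to 0.959). NFE2L2, the oxidative stress factor NRF2, had a ratio of 1.14 (1.1 to 1.18). The histone methyltransferase EHMT2 (G9a) and the histone demethylase KDM4C, both known activators of serine synthesis genes, had ratios of 1.24 (1.19 to 1.29) and 0.698 (0.653 to 0.748). MDM2, the p53 ligase that can also bind chromatin at serine genes, was the 1 of the 8 regulators past 1.5-fold, at 111.1 and 110.6 CPM in shFTO runs and 55.3 and 56.4 CPM in scramble runs. Of 23 tested genes of the amino acid response, 3 were at least 1.5-fold higher and 6 lower, with a median log2 ratio of 0.19. Over all tested genes 11.4% were higher and 13.4% lower with TMM scaling, which is also the background for the lists below. With plain library size 4 genes of the amino acid response were higher and 3 lower, beside 2414 higher and 1305 lower of all 13767 tested genes. Among its best known ATF4 targets, the asparagine synthetase ASNS had a ratio of 1.02 (0.923 to 1.12) and TRIB3 1.2 (1.15 to 1.25), both chosen after their values were seen. NUPR1, a stress-induced nuclear protein, was 4.38-fold higher (4.06 to 4.74), VLDLR 1.84-fold (1.6 to 2.13) and the leucine transporter SLC7A5 1.54-fold (1.51 to 1.57). The 4 largest decreases of the list were in CEBPB, a transcription factor (1.99-fold lower, 1.89 to 2.1), SLC7A11, the cystine transporter (1.75-fold, 1.56 to 1.97), PCK2, the mitochondrial carboxykinase (1.73-fold, 1.67 to 1.78), and ALDH18A1, which starts proline synthesis (1.67-fold, 1.62 to 1.71).

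Of 15 tested genes of folate metabolism and transport, none was at least 1.5-fold higher and 1 was lower, beside 11.4% and 13.4% of all tested genes; their log2 ratios ran from -0.70 to 0.38, with a median of -0.02, or 0.15 with plain library size. The gene past 1.5-fold was ALDH1L2, the mitochondrial counterpart of ALDH1L1, at 1.87 and 1.05 CPM in shFTO runs and 2.44 and 2.28 CPM in scramble runs. Its ratio of 0.617 had a wide interval (0.44 to 0.861), and without shFTO run 2 or with plain library size it was no longer past 1.5-fold. Of 13 tested purine synthesis genes, none was at least 1.5-fold higher and 1 lower (ADSS1, the muscle-type adenylosuccinate synthase, 1.87-fold, 1.5 to 2.32). In 3 of the alternatives (upper quartile scaling, plain library size and without shFTO run 2), 1 purine gene counted as higher. Of 10 tested genes of glycine cleavage and methylglycine breakdown, 2 were lower (1 with plain library size): DLD, the dihydrolipoamide dehydrogenase that the glycine cleavage system shares with other mitochondrial complexes, 1.97-fold (1.87 to 2.07), and GCAT, a mitochondrial enzyme of threonine breakdown, 1.64-fold (1.46 to 1.83).

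Of 12 tested genes of the methionine cycle and transsulfuration, 2 were at least 1.5-fold higher and 2 lower. The lower count was 1 with plain library size and 3 without shFTO run 2 or without scramble run 1. Over all tested genes 11.4% were higher and 13.4% lower. MAT2A, the S-adenosylmethionine synthetase of dividing and extrahepatic cells, had 316.8 and 316.1 CPM in shFTO runs and 157.7 and 156.2 CPM in scramble runs, and was 2.02-fold higher (1.96 to 2.08). MAT1A, the form of adult liver, had 41.8 and 40.8 CPM in shFTO runs and 88.7 and 88.9 CPM in scramble runs, and was 2.15-fold lower (2.03 to 2.28). The groups did not overlap for either synthetase gene. BHMT, which remethylates homocysteine with betaine, was 1.75-fold higher (1.35 to 2.29) at 3.99 CPM in shFTO cells and 2.28 CPM in scramble cells, and AMD1, which takes S-adenosylmethionine to polyamines, 1.6-fold lower (1.55 to 1.66). Of 19 tested genes of serine transport and use, 1 was at least 1.5-fold higher and 3 were lower. With plain library size 2 were higher and 2 lower, and without scramble run 2 the counts were 2 higher and 3 lower. These counts too are read against the shares over all tested genes. The neutral amino acid exchanger SLC1A4, a serine transporter, had 176.7 and 175.2 CPM in shFTO runs and 80.9 and 85.0 CPM in scramble runs, and was 2.12-fold higher (2.03 to 2.21). SLC38A2, a sodium-coupled transporter of small neutral amino acids, had 596.4 and 594.7 CPM in shFTO runs and 1195 and 1211 CPM in scramble runs, and was 2.02-fold lower (1.99 to 2.05). The related SLC38A4 was 2.44-fold lower (1.83 to 3.28) and SFXN3, a mitochondrial serine carrier, 1.68-fold lower (1.54 to 1.83).

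Of 9 tested genes of the glycolytic enzymes around 3-phosphoglycerate, the precursor of serine, none was at least 1.5-fold higher and 4 were lower, with a median log2 ratio of -0.53, or -0.36 with plain library size. PGK1, which makes 3-phosphoglycerate, had 666.2 and 667.7 CPM in shFTO runs and 1591 and 1606 CPM in scramble runs, a pooled level 2.4-fold lower (2.36 to 2.43). GAPDH, ENO1 and PKLR were the other 3 past 1.5-fold. The enolase gene ENO3 and BPGM, the bisphosphoglycerate mutase, both named after their values were seen, went the other way, with ratios of 1.18 (1.08 to 1.29) and 1.21 (1.05 to 1.4). Over all 8 lists, 7 of 109 tested genes (6.42%) were at least 1.5-fold higher and 19 (17.4%) lower, beside 11.4% and 13.4% of all tested genes. With plain library size 10 of the 109 list genes were higher and 12 lower, beside 2414 higher and 1305 lower of all 13767 tested genes. Both the list counts and their background thus moved with the scaling.

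**Figure D4:**
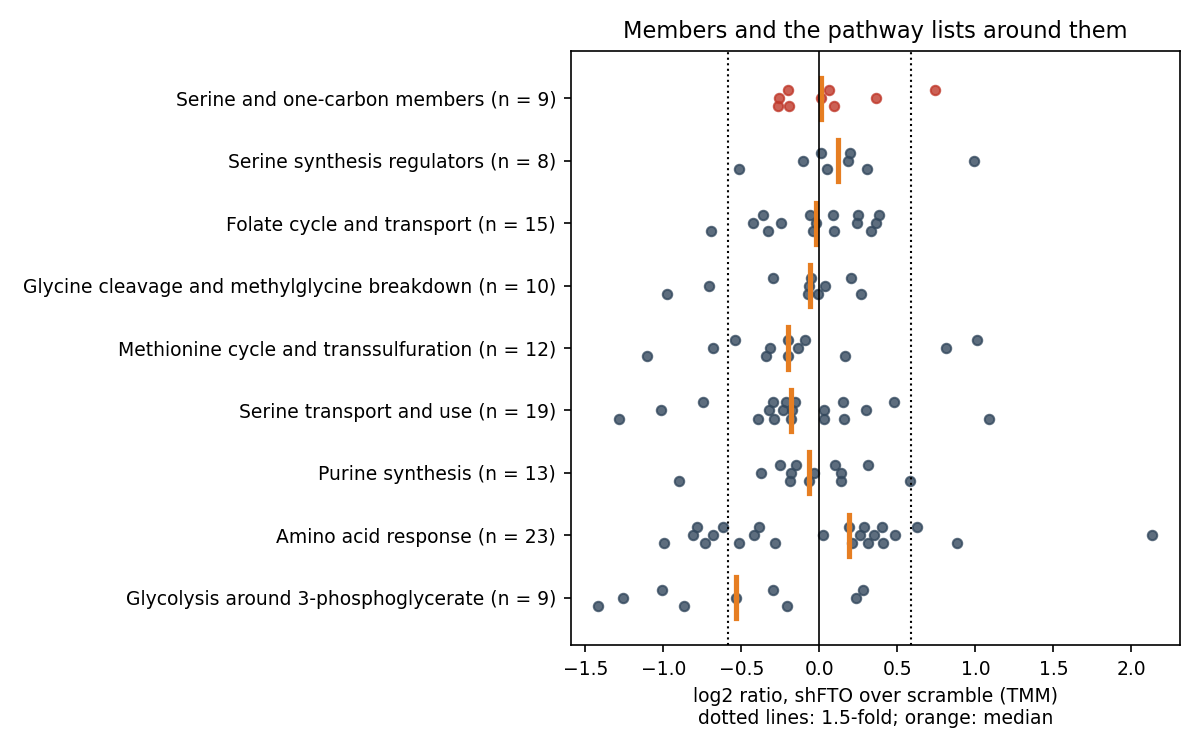
Log2 ratio of shFTO over scramble (horizontal axis, TMM scaling) for every tested gene of the set (red, n = 9) and of 8 lists of neighbouring pathways (dark), with the median of each list (orange) and 1.5-fold (dotted). The 9 genes lie between -0.26 and 0.74. The methionine and serine transport lists, which hold more genes, reach past 2-fold in both directions. Of all tested genes, 5.18% were past 2-fold higher and 6.19% lower.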

How the data were processed

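The authors deposited whole-number counts for each Ensembl gene, without normalization. Per the submitters' processing notes, the authors used TopHat2 2.1.1, HTSeq 0.6.0 and the build hg19; the annotation release and strand setting are not given in the sources used here. Groups come from the sample titles, and the labels do not say whether the 2 runs of a group came from separate cultures. Symbols were matched by identifier for 51537 of 62893 genes.

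Genes were kept by edgeR's filterByExpr, and library sizes were scaled by TMM (edgeR 4.0.16, R 4.3.3). The runs of a group were pooled, since a chi-square test over genes of 20 or more reads found agreement within sampling noise. A gene was counted as higher or lower past a 1.5-fold ratio. The 9 genes, the 8 lists and the motifs were chosen with earlier results of these data known. Named genes are FTO, the 9 genes, the regulators, and in each list up to 4 each way past 1.5-fold with a mean of at least 1 CPM. Where the text names others it says so or names them as markers or overlapping genes. edgeR's quasi-likelihood test and DESeq2 1.42.0 were run on the 4 runs as if they were replicates, for counts of calls only. Scripts were tested on simulated data.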

Additional observations from a re-analysis of the deposited data

How the results depend on the processing

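The counts of the 9 genes past 1.5-fold, 1 higher and 0 lower, were identical under all scalings, filters and left-out runs tried; at 2-fold none was higher. Their median log2 ratio was 0.059 with upper quartile scaling and 0.18 with plain library size, and -0.02 to 0.03 with 1 run left out, where the sign of PSAT1 changed. Over all genes, 1569 were higher and 1841 lower. These counts were 713 and 852 at 2-fold, 6948 and 6087 without a filter on low counts, and 2414 higher and 1305 lower with plain library size, so that 64.9% of calls were higher in place of 46.0%. With 1 run left out they ran from 1679 to 1856 higher and from 1989 to 2072 lower. The FTO log2 ratio of -2.41 ran from -2.48 to -2.35. The SHMT2 read share ran from 79.2% to 79.8% in shFTO cells and from 79.7% to 81.0% in scramble cells, and the mitochondrial MTHFD share from 45.1% to 45.8% and from 53.0% to 54.4%. The cause of these shifts was not tested.

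By edgeR's quasi-likelihood test on the 4 runs, with the replicate number as a block, 6 of the 9 genes and 9216 of all genes were called, against 6 and 9170 without it. The groups share replicate numbers in the titles alone; across 13767 genes the deviations of same-numbered runs had a correlation of 0.003, and the block changed no call of the 9 genes. Leaving out a run gave 6 or 7 calls among the 9 genes and 8365 to 8521 over all genes, and DESeq2 gave 6 and 6881. Upper quartile scaling gave 9 calls among the 9 genes, with 5199 higher and 4142 lower over all genes. Plain library size gave 7, with 6711 higher and 3041 lower over all genes. PSAT1, PSPH and MTHFD1L, whose counting intervals held a ratio of 1 with TMM, were called under both of these scalings, and PSPH also without scramble run 1.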

Other observations

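Ratios of reads between enzymes within a run need no scaling of libraries; the pairs given here were chosen after the values were seen. PSAT1 had 1.29 and 1.29 times the reads of PHGDH in the shFTO runs and 1.13 and 1.10 times in the scramble runs. MTHFD1 had 4.30 and 4.33 times the reads of SHMT1 in the shFTO runs and 3.09 and 2.79 times in the scramble runs. MTHFD2 had 1.06 and 1.10 times the reads of MTHFD1L in the shFTO runs and 1.33 and 1.37 times in the scramble runs. The ratio of ALDH1L1 to MTHFD1 reads was 0.127 and 0.130 in the shFTO runs and 0.0993 and 0.0990 in the scramble runs. The groups did not overlap in any of these 4 ratios, nor in the other pairs computed. The share of all gene pairs without overlap was not counted, so this does not set these pairs apart.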
